A study of Mus musculus with 27 samples.

Results

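Tumours of the cerebellum from Ptc1+/- mice were compared with cerebellar tissue that held no tumour, on 8 of the 27 Affymetrix arrays of the series. The tumour side was every array titled as a Ptc1+/- cerebellar tumour, 2 arrays. The control side was every array titled as non-tumour cerebellar tissue, 6 arrays. Controls 1 and 2 came from Olig2-tva-cre:SmoM2 mice. Control 3 was taken from hGFAP-cre:SmoM2 animals, controls 4 and 5 from a Mxi1-cre:SmoM2 line, and control 6 from Ptc1+/- mice. Only control 6 therefore shared the germline allele of the tumours, and the other 5 came from mice of lines carrying SmoM2, an activated Smoothened, with a cre driver. Age, sex and strain background are not in the labels used here. The labels call the tumours biological replicates but name no animal, so the p-values reflect only how far these samples spread, which may be technical. A further 19 arrays of tumours with SmoM2 entered the estimate of the spread and a closing comparison. The cre driver was Math1-cre in 3 of them, Tlx3-cre in 3, Olig2-tva-cre in 7 and hGFAP-cre in 6.

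Patched 1, encoded by Ptch1 (Ptc1), is the receptor of Hedgehog ligands and holds Smoothened in check. When ligand binds Patched, Smoothened acts through Sufu and Kif7 on the Gli transcription factors, which switch on targets that include Gli1, Hhip and Ptch1 itself. In the developing cerebellum Sonic hedgehog from Purkinje cells drives granule neuron precursors to divide, and mice with a single working Ptch1 copy can develop medulloblastoma from that lineage.

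Values below are log2 signals after each array was scaled to a common trimmed mean and low signals were raised to a floor of 3.37. A gene was called when its limma p, adjusted by Benjamini-Hochberg over all 14044 genes tested, was under 0.05. Several arrays stood apart. Tumour 2 was dim, with a deposited trimmed mean of 47.3, against 92.1 for tumour 1 and 118 to 161 for the controls. The log2 ratio of 3' to 5' control probe signals was 0.05 and 0.07 in the tumours and 0.14 to 1.75 in the controls. Over genes, which are not independent, the tumours correlated with each other at 0.86, against 0.95 to 0.96 among controls 1 to 5. Control 6 correlated at 0.92 to 0.95 with the other controls and had the highest mean of the controls over the mitosis, replication and granule precursor lists. Control 5 had high choroid plexus genes, with Ttr at 13.23 and Kl at 7.59. The labelled tissue was borne out by its markers in every control, as Gabra6, Cbln3, Pcp2 and Car8 all lay at 11.66 or above there.

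In the tumours 2439 genes were higher and 2499 lower than in the controls, which is 17.4% and 17.8% of the genes tested. Of these, 1929 and 2076 differed at least 2-fold. With all arrays brought to a common median in place of a common trimmed mean, 1742 genes were higher and 2796 lower, and the median difference over all genes moved from 0.09 to -0.08. Both tumour arrays lay above all 6 controls for 3313 genes (23.6%) and below all 6 for 2957 genes (21.1%). The ranges of tumour and control arrays overlapped for 302 called genes. Counts of list members called below are to be read beside the 17.4% higher and 17.8% lower of all genes. RNA from a whole tissue cannot tell fewer cells of a type from less RNA per cell.

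**Figure D1:**
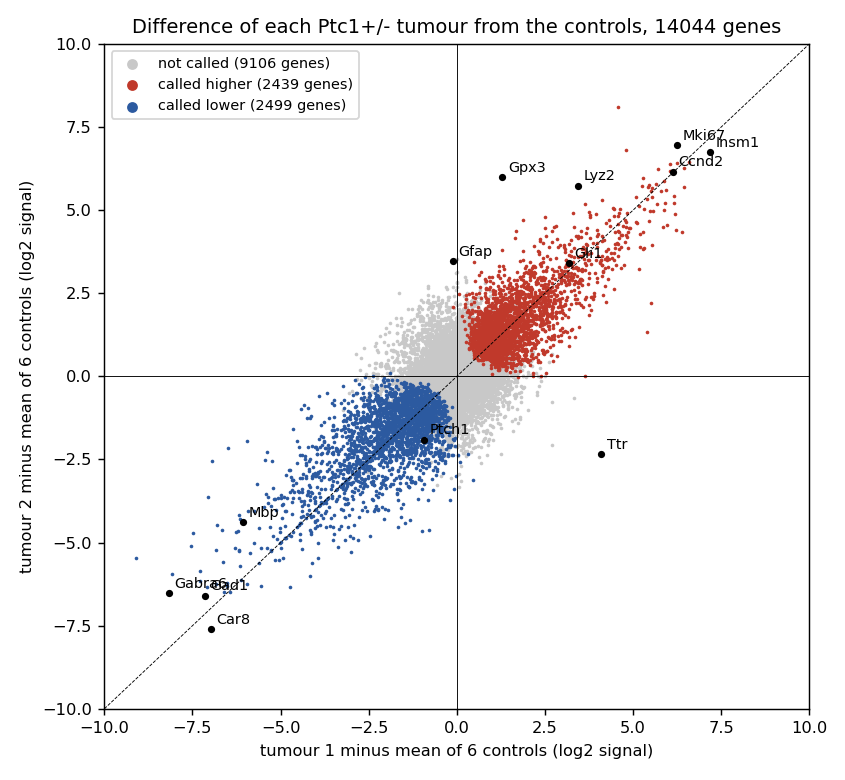
Difference of tumour 1 (x axis) and tumour 2 (y axis) from the mean of the 6 controls, in log2 signal, for 14044 genes. Red and blue points are the 2439 genes called higher and the 2499 called lower, grey points the 9106 not called, and the dashed line marks equal differences. Mki67 and Insm1 lie at the upper end in both tumours, Gabra6 and Car8 at the lower end, while Ttr, Gfap and Gpx3 lie far from the dashed line.

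Ptch1, the gene altered in these mice, was measured by 3 probe sets that did not move together. On the brightest, it read 9.38 in tumour 1 and 8.40 in tumour 2, below all 6 controls (9.93 lowest, 10.35 median, 10.58 highest). The difference was -1.41 ± 0.32 (SE, n = 2 and 6, limma adjusted p = 0.000859). On the second probe set the tumours read 8.16 and 6.84 and the controls 6.22 to 7.09, a difference of 0.95 the other way. On the third both tumours were at the floor, as were 3 of the controls. The call was lost without tumour 2 (-0.92, limma adjusted p = 0.0981), with the mean of the probe sets (-0.40, adjusted p = 0.392) and with the most variable probe set (-0.74, adjusted p = 0.618). Which part of the transcript each probe set covers was not analysed here, so none of the 3 serves as a check of the allele.

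Of 14 listed Hedgehog ligands, receptors and co-receptors, 11 were tested, and 4 rose and 2 fell, with a median difference of 0.67. Smo, which encodes Smoothened, was at 9.09 in both tumours and at 6.76 lowest, 6.94 median and 7.27 highest in the controls. It rose by 2.11 ± 0.26 (limma adjusted p = 2.07e-07) with no overlap. Cdon, a co-receptor that binds Hedgehog ligands beside Patched, was at 4.39 in tumour 1 and at the floor in tumour 2, against 7.77 to 8.16 in the controls, so that it fell by at least 4.03 (SE 0.33, limma adjusted p = 1.7e-10). Boc, the related co-receptor, rose by 0.87 ± 0.31 (limma adjusted p = 0.0292). That call was lost under 8 of 25 alternatives, leaving out either tumour among them, and with the signals as deposited the Boc difference was -0.23. Gas1, the third co-receptor, read 9.26 and 8.95 against 8.52 to 9.27 and did not pass the test (0.29 ± 0.26). Gpr161, a ciliary receptor that restrains the pathway, rose by 1.34 ± 0.30 (limma adjusted p = 0.00086). Shh, the ligand itself, read 6.21 and 6.09 in the tumours and 6.79 to 8.76 in the controls, and at -1.76 ± 0.74 it missed the threshold (limma adjusted p = 0.0651), which 7 of 25 alternatives passed.

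Of 14 listed transduction genes 13 were tested, with 6 higher and 1 lower and a median of 0.76. Gli1, an activator and itself a target, was at 9.11 and 9.32 against 5.47 lowest, 5.97 median and 6.27 highest in the controls. Both tumours lay well above every control, and Gli1 rose by 3.29 ± 0.51 (limma adjusted p = 7.49e-06). Gli2, the main activator of the response, rose by 3.41 ± 0.51 (adjusted p = 5.05e-06, limma). Its controls spread widely, from 3.57 to 6.97, and the difference from control 6 alone was 1.96. Gli3, which acts mostly as a repressor, read 5.50 and 6.59 against 6.48 to 6.86 and was not called (-0.65 ± 0.44). Sufu, which holds Gli proteins back, rose by 2.16 ± 0.25 (adjusted p = 9.12e-08, limma), and the ciliary genes Evc and Kif7 rose by at least 2.50 and at least 2.30, with 2 and 5 of the controls at the floor. The Kif7 call was lost without either tumour array. Spop, an adaptor for the degradation of Gli proteins, was at 7.70 and 7.74 against 9.81 to 10.73 and was the member that fell, by 2.48 (SE 0.26, limma adjusted p = 1.58e-08).

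The 12 tested of 13 listed Hedgehog targets had a median difference of 2.12, with 7 higher and 2 lower. Ccnd2, a D cyclin that starts the cell cycle, was at 12.77 and 12.80 in the tumours and at 5.97 lowest, 6.47 median and 7.70 highest in the controls. The difference of 6.14 ± 0.36 (limma adjusted p = 4.25e-13) is a fold of 70.4. Mycn, the Myc factor of granule precursors, read 10.68 and 10.77 against 5.01 to 6.96 and rose by 4.88 ± 0.55. Sfrp1, a secreted Wnt antagonist, rose by 5.56 ± 0.34, and Ccnd1 by 2.64 ± 0.25. Hhip, a decoy receptor for the ligand, was at 8.09 in tumour 1 but at 5.85 in tumour 2, inside the control range of 3.80 to 6.96. Its rise of 1.59 ± 0.58 (limma adjusted p = 0.0332) was lost under 9 of 25 alternatives, and was 0.47 without tumour 1. Igf2, a growth factor, read 7.66 and 8.66 against 7.19 to 9.22 and showed a difference of -0.01 ± 0.58. Rasl11b fell by 1.17 (SE 0.24), and Ptch1 as above.

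**Figure D2:**
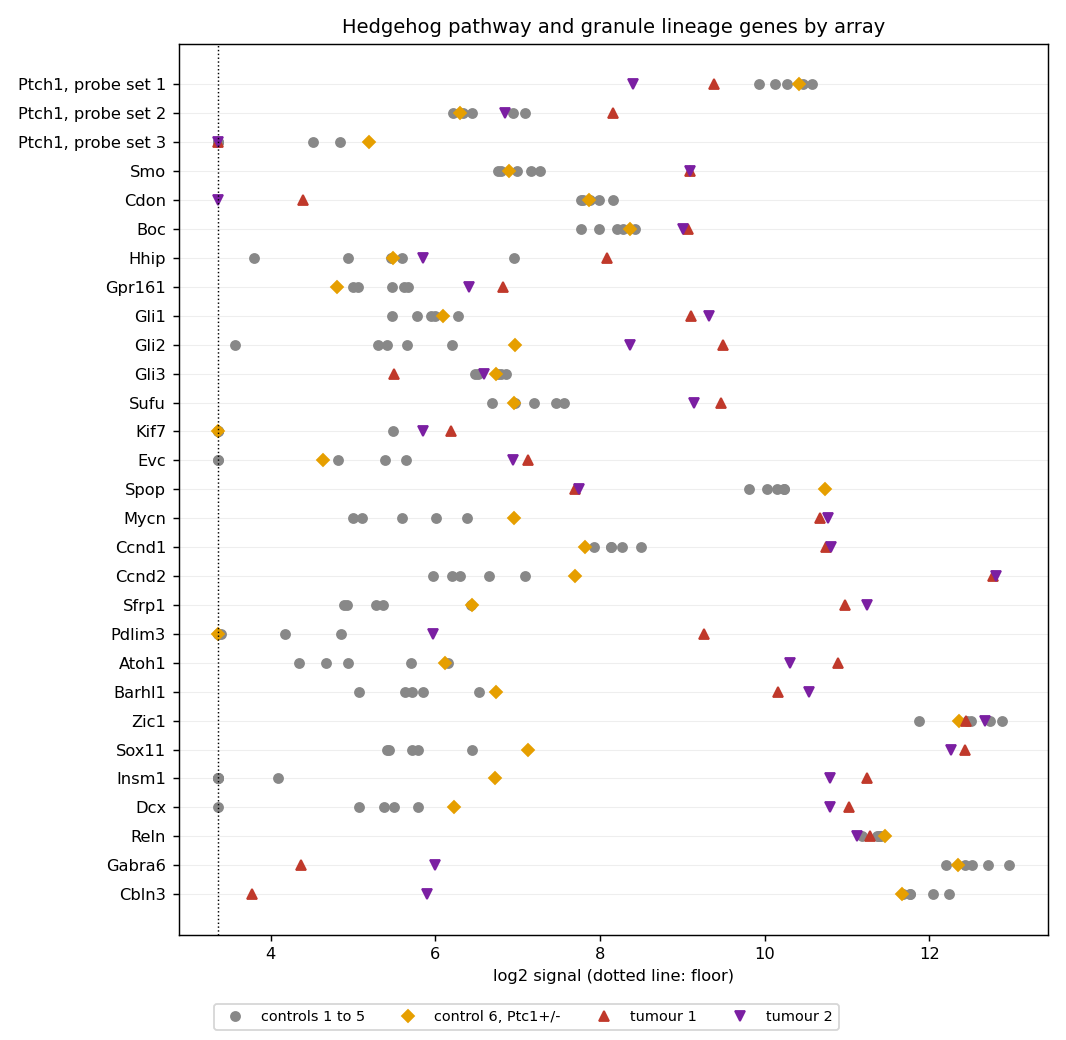
Log2 signal of Hedgehog pathway and granule lineage genes on each array: red and purple triangles are tumours 1 and 2, grey circles controls 1 to 5 and the orange diamond control 6, with the floor dotted. Gli1, Smo and Ccnd2 lie above all controls in both tumours, Cdon, Spop and Gabra6 below, and the 3 Ptch1 probe sets differ in direction.

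Granule neuron precursors carry Atoh1, the factor that defines the lineage, and lose it as they leave the cycle. Of 17 listed precursor genes 16 were tested, and 11 rose and 1 fell, with a median of 2.28. Atoh1 was at 10.90 and 10.31 in the tumours, against 4.34 lowest, 5.32 median and 6.15 highest in the controls, a rise of 5.28 ± 0.56 (limma adjusted p = 2.07e-08). Barhl1, a homeobox gene of the same lineage, rose by 4.43 ± 0.55, and Cxcr4, the chemokine receptor that holds precursors at the pial surface, by 4.76 ± 0.57. Insm1, a zinc finger factor of dividing neuron progenitors, read 11.24 and 10.79 and rose by at least 6.97 (SE 0.61, limma adjusted p = 6.45e-10), with 4 of the controls at the floor and control 6 at 6.73. Sox11, a factor of newly made neurons, rose by 6.35 ± 0.59. Zic1 and Neurod1, which mature granule neurons also express, did not pass the test: Zic1 read 12.44 and 12.68 against 11.87 to 12.88, and Neurod1 11.73 and 12.12 against a control median of 12.30 and a highest value of 12.56. Zic2 fell by 1.06 (SE 0.35, limma adjusted p = 0.018), a call lost without either tumour.

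Genes of new and migrating granule neurons were divided, with 6 higher and 3 lower of 15 tested. Dcx, a microtubule protein of migrating neurons, read 11.03 and 10.79 against 3.37 to 6.23 and rose by at least 5.68 (SE 0.45), and Dcc, a netrin receptor, rose by 5.53 ± 0.40. The repulsive netrin receptor Unc5c fell by 1.35 (SE 0.27). The tumours parted in this list. Cntn2, an axonal adhesion protein of early granule neurons, was at 6.44 in tumour 1 and 9.91 in tumour 2, one below and one above the controls at 7.83 to 9.06, and its difference was 1.45 without tumour 1. Stmn2, a growth cone protein, was at 8.78 in tumour 1 and 11.17 in tumour 2, the latter within the controls at 10.82 to 11.45. Its fall of 1.18 (SE 0.46, limma adjusted p = 0.0486) became 0.01 without tumour 1, and the call was lost under 12 of 25 alternatives.

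Mature granule neuron genes fell in 10 of 11 tested, of 14 listed, with a median of -4.34. Gabra6, the GABA receptor subunit of mature granule neurons, was at 4.37 and 6.00 against 12.20 lowest, 12.47 median and 12.97 highest. The difference of -7.34 ± 0.96 (limma adjusted p = 6.11e-07) rests on low signals in both tumours. Cbln3, a cerebellin of the same cells, was at 3.78 and 5.90 against 11.66 to 12.24. Fat2, a large cadherin of granule neurons, was at 3.44 in tumour 1 but 7.78 in tumour 2, both below the controls at 9.10 to 10.45, and its call was lost without tumour 1. The member not called was Reln, the secreted guide of migrating neurons, at 11.27 and 11.12 against 11.18 to 11.47.

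Among other rhombic lip genes 4 rose and 1 fell of 8 tested. Lhx2 was at 7.15 and 7.54 with all 6 controls at the floor, at least 3.98 higher (SE 0.32, limma adjusted p = 1.37e-10). Otx2, a homeobox gene of posterior granule precursors, read 8.70 and 8.85 against 5.21 to 6.75, and Pou4f1 rose by at least 3.74. Eomes, a marker of unipolar brush cells, fell by 1.24 (SE 0.46, limma adjusted p = 0.0372), a call lost under 9 of 25 alternatives, those without either tumour included. Of 12 regional patterning genes 2 rose and 3 fell, beside 17.4% and 17.8% of all genes tested. Foxd1, a forkhead factor, was at 8.55 and 8.37 against 4.36 lowest, 5.08 median and 5.85 highest and rose by 3.35 ± 0.62.

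Dividing cells need cyclin-dependent kinases, the spindle and the replication machinery, and these genes rose almost as a block. Of the 33 mitosis genes tested 32 rose and none fell, with a median of 4.47, and of 27 replication genes 26 rose, with a median of 3.08. For 31 and 26 of them both tumours lay above all controls. Promoter sequences are shown for 5 of these genes because cell cycle genes share short elements there. The CCAAT box binds NF-Y and the CHR element TTTGAA binds the DREAM and MuvB complexes, and both act in promoters of mitotic genes. The motifs TTTGGCGC and TTTCCCGC are forms of the site of E2F factors, which drive replication genes. Windows of 250 bases before the gene start were taken from RefSeq on GRCm38.p6, the first window listed for a gene, and were found for 11290 of the tested genes. On either strand CCAAT was in 22 of 28 mitosis windows (78.6%) and in 35.9% of all windows, TTTGAA in 9 (32.1%, against 10.8%), and both in 8 (28.6%, against 3.96%). Either E2F motif was in 5 of 24 replication windows (20.8%) and in 2.41% of all windows. Some other lists had similar or higher shares of a single motif. CCAAT was in 7 of 8 antigen presentation and 5 of 6 regional patterning windows. Either E2F motif was in 2 of 8 antigen presentation windows, and TTTGAA in 5 of 16 chromatin windows. CCAAT and TTTGAA together had their highest share in the mitosis list. None of these 4 motifs holds another within its letters. A Gli site spelled GACCACCCA was in 0 of 9, 0 of 11 and 0 of 7 windows of the Hedgehog receptor, transduction and target lists and in 0.177% of all windows, which says only that these letters are not in those windows. In the windows printed here, capitals mark only the elements for which the gene was chosen. Matches to the other motifs stay in lower case, as in the Mcm6 window, which also holds CCAAT boxes on the opposite strand. The printed holders are the 3 mitosis genes with both elements and the 2 replication genes with an E2F motif that had the highest differences. All 5 windows are written 5′ to 3′ along the gene's strand. They lie as follows: Mki67 at chr7:135716380-135716629 on the minus strand, Top2a at chr11:99024190-99024439 on the minus strand, Ube2c at chr2:164769679-164769928 on the plus strand, Mcm6 at chr1:128359706-128359955 on the minus strand, and Cdc6 at chr11:98907901-98908150 on the plus strand.
Mki67: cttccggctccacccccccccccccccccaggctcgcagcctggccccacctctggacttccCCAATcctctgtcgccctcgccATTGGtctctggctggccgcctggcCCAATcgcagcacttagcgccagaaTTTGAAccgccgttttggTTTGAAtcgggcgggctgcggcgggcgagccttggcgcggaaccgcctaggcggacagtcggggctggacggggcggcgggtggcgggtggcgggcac
Top2a: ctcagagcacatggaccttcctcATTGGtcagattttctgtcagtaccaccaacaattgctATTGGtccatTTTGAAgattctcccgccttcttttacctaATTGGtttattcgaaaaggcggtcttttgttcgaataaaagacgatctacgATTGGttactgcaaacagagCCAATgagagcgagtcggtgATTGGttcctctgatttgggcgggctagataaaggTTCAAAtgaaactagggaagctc
Ube2c: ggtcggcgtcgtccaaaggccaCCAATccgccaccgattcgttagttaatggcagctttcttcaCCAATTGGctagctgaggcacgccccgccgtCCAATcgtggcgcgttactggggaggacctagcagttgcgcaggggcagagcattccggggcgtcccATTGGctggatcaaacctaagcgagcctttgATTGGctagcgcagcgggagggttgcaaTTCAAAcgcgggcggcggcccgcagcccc
Mcm6: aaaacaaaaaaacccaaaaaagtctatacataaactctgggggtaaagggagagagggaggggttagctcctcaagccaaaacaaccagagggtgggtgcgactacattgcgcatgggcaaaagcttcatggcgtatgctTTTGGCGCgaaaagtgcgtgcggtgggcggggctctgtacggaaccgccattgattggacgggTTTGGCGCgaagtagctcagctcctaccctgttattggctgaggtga
Cdc6: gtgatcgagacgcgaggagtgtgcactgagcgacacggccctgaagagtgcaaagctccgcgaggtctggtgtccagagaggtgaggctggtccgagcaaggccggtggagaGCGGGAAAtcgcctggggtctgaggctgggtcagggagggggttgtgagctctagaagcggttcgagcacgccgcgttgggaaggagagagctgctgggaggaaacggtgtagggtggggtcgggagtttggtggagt

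Mki67, a protein of dividing cells used as a proliferation marker, was at 10.46 and 11.16 in the tumours and at 3.37 lowest, 4.20 median and 5.69 highest in the controls. The rise was at least 6.60 (SE 0.40, limma adjusted p = 6.19e-13), as 1 control was at the floor. Top2a, the topoisomerase that untangles chromosomes, read 10.64 and 10.82 against 3.54 to 6.40, and Ube2c, which helps to end mitosis, 9.80 and 9.94 against 3.37 to 5.31. Mcm6, a subunit of the replicative helicase, was at 10.37 and 10.02 against 3.37 to 6.22. Cdc6, which loads that helicase, was at 7.78 and 6.93 with all controls at the floor. In Mki67, Top2a, Ube2c and Mcm6 the highest control was control 6. Tpx2, a spindle factor, was the mitosis gene not called on the probe set used (0.36 ± 0.31). The 4 alternatives with another probe set or scale that called it gave 2.23 to 4.475. Fen1, a flap nuclease of replication, was the replication gene not called: it read 9.42 and 8.93 against 9.02 to 10.51 on the probe set used, a difference of -0.67, and on the other 8.02 and 8.11 against 5.57 to 6.75, a difference of 1.92.

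Of 25 cyclins, kinases, inhibitors and E2f genes 14 rose and none fell. Cdk6, a partner of the D cyclins, was at 10.91 and 10.90 against 4.22 lowest, 4.99 median and 6.41 highest, a rise of 5.88 ± 0.44. E2f1 rose by 3.45 ± 0.37. The inhibitor Cdkn2c rose as well, at 9.22 and 9.49 against 6.31 to 7.45 (2.47 ± 0.33, limma adjusted p = 6.85e-07). Cdkn1a, a target of p53, was not called (0.10 ± 0.53), and its second probe set was at the floor in both tumours and differed by -2.11. Rb1, the retinoblastoma protein, rose by 0.97 ± 0.30, a call lost without tumour 1, and its difference was -0.13 with the signals as deposited. The DNA damage genes rose in 11 of 12 tested, among them Brca1, at 8.66 and 7.90 against 3.85 to 5.12. Of 16 p53 axis genes 3 rose and 2 fell, beside 17.4% and 17.8% of all genes tested. Among them Eda2r, a death receptor, rose by at least 3.51. Gadd45a, induced by growth arrest, rose by 1.30 ± 0.45, a call lost under 8 of 25 alternatives.

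**Figure D3:**
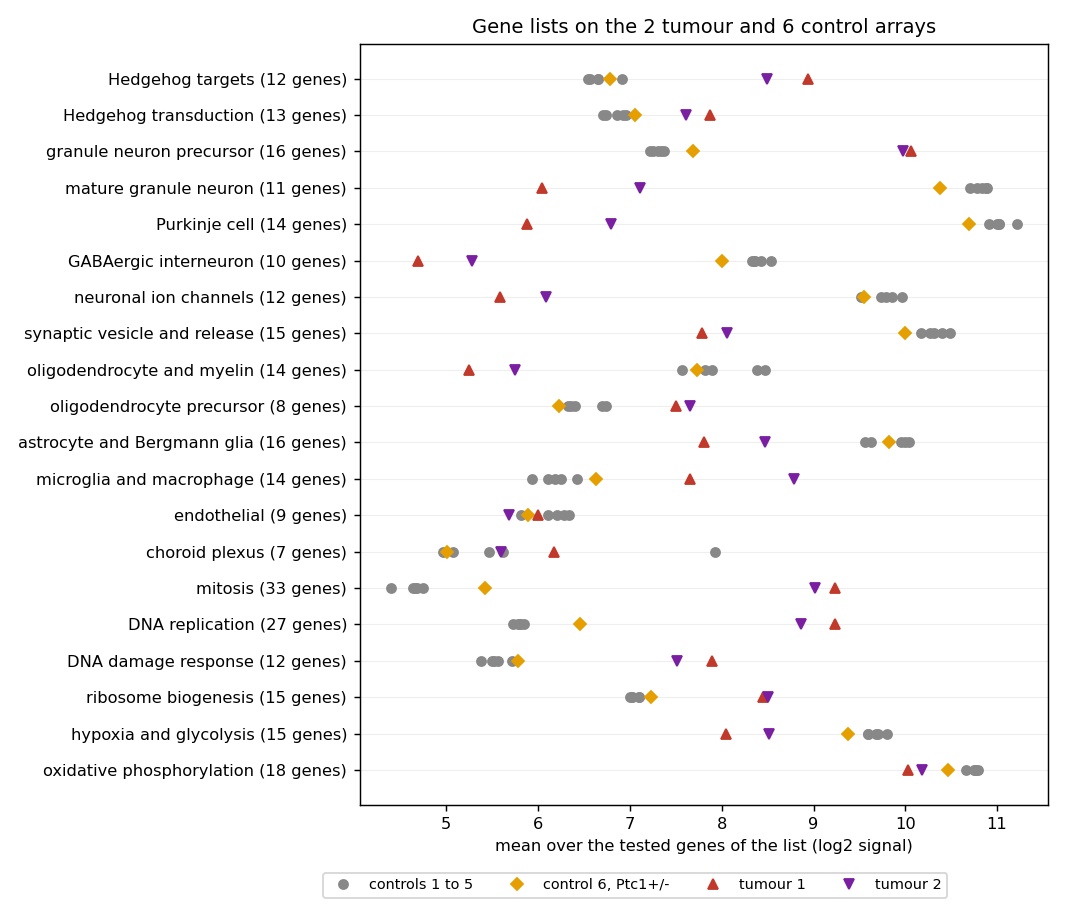
Mean log2 signal over the tested genes of 20 lists on each array, with triangles for tumours 1 and 2, grey circles for controls 1 to 5 and an orange diamond for control 6. The mitosis mean is 9.23 and 9.02 in the tumours against 4.40 to 5.42 in the controls, and the choroid plexus mean is highest in control 5 at 7.93.

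Purkinje cell genes fell in 13 of 14 tested, with a median of -5.63. Car8, a protein of Purkinje cells that acts on calcium release, was at 5.36 and 4.74 against 11.92 lowest, 12.28 median and 12.75 highest (-7.29 ± 0.98, limma adjusted p = 8.92e-07). Pcp2 was at the floor in tumour 1 and at 7.02 in tumour 2, against 11.90 to 12.84. The member that rose was Foxp2, a forkhead factor, at 8.98 and 9.21 against 7.35 to 7.88. GABAergic interneuron genes fell in 8 of 10. Gad1, which makes GABA, read 4.05 and 4.60 against 10.86 to 11.47, and Slc32a1, which loads it into vesicles, was at the floor in both tumours and at 8.13 to 8.66 in the controls, at least 4.98 lower.

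Genes of neuronal function fell alongside. All 12 tested ion channel genes were lower, with a median of -4.04. Kcnd2, a potassium channel, read 5.97 and 5.46 against 10.62 to 11.17, and the sodium channel Scn1a 5.25 and 5.20 against 9.70 to 10.16. Of 15 vesicle release genes 14 fell, among them Snap25 and Syt1, which act in membrane fusion, by 3.85 and 4.24 (a fold of 14.4 and 18.9). Stx1a, also part of the fusion machinery, rose by 2.00 ± 0.37 (limma adjusted p = 9.34e-05). Of 9 transmitter receptors 7 fell. Gria2, an AMPA receptor subunit, was not called at 0.39 ± 0.39 on the probe set used, and with the most variable one it differed by -1.50.

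Myelin genes fell in 12 of 14, with a median of -2.21, and Mbp, a main myelin protein, was at 6.74 and 8.42 against 12.31 lowest, 12.87 median and 13.15 highest. Opalin was not called (-0.69 ± 0.47). Of 8 genes of oligodendrocyte precursors 3 rose and none fell. Pdgfra, the growth factor receptor of these precursors, read 10.97 and 9.59 against 5.70 to 6.73 (4.04 ± 0.37, limma adjusted p = 1.16e-09), and Olig2 rose by 2.36 ± 0.50, while Sox10 was not called (-0.17 ± 0.41). Astrocyte and Bergmann glia genes fell in 12 of 16 and rose in 1. Gja1, a gap junction protein, was at 7.03 and 7.72 against 10.76 to 11.91, and Aqp4, the water channel of astrocyte endfeet, at 7.08 and 8.36 against 10.03 to 10.87. Gfap, the astrocyte filament, was at 7.88 in tumour 1, inside the controls at 6.44 to 9.84, and at 11.47 in tumour 2, above them. Slc6a11, a GABA transporter, was the member that rose, by 2.31 ± 0.60, a call lost without tumour 2. Among neural stem cell genes 3 rose and 2 fell of 10. Melk, a kinase of dividing progenitors, rose by at least 4.48, and Sox2 fell by 1.05 (SE 0.35, limma adjusted p = 0.0206), a call lost without either tumour. Nes, a filament of stem cells, was not called (0.18 ± 0.43), and 4 alternatives with another probe set or scale called it, at 1.60 to 3.03.

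Of 14 microglia and macrophage genes 10 rose and none fell, with a median of 2.10. Lyz2, the lysozyme of macrophages, was at 10.17 in tumour 1 and 12.48 in tumour 2 against 6.62 lowest, 6.69 median and 7.04 highest, a rise of 4.59 ± 0.60 (limma adjusted p = 5.63e-07). C1qc, a complement subunit, read 8.74 and 10.41 against 5.45 to 6.82, and Cd68, a lysosomal protein of phagocytes, 7.67 and 8.55 against 4.24 to 5.77. Cx3cr1 and P2ry12, receptors of resting microglia, were not called, at 0.13 ± 0.47 and 0.06 ± 0.45, nor was Csf1r (-0.15 ± 0.26). The mean over the list was 7.65 in tumour 1, 8.79 in tumour 2 and 5.94 to 6.63 in the controls, highest in control 6. Lcn2, an iron-binding acute phase protein, was at 8.12 and 11.66 with 4 controls at the floor, and rose by at least 6.34 (SE 1.31, limma adjusted p = 0.000379). That call was lost without dim arrays, tumour 2 among them (4.56), and with control 6 alone as the control side (5.74). None of 10 antigen presentation and 8 interferon genes was called by limma, and 1 and 2 of them had an unadjusted p under 0.05. Over all genes tested against the controls, 6111 of 14044 had an unadjusted p under 0.05. Of 9 endothelial genes 2 fell, and of 12 mural and matrix genes 1 rose and 2 fell. Of the 3 lymphocyte genes tested 1 rose. Beside these counts, 17.4% of all genes tested rose and 17.8% fell. No choroid plexus gene of 7 was called by limma (1 with an unadjusted p under 0.05), and the list mean was 6.18 and 5.59 in the tumours against 4.96 to 7.93. The mean of the 2 blood genes tested was 3.71 in tumour 1 and 7.51 in tumour 2, against 3.86 to 6.52, so that tumour 2 was high in both blood and myeloid genes. The part of blood in the myeloid values was not tested.

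Of 15 ribosome biogenesis genes 12 rose and none fell, with a median of 1.35, and Nop58, a factor of ribosomal RNA modification, read 8.74 and 8.71 against 5.85 to 6.76. Of 10 genes of the Myc and Mxd network 3 rose and 2 fell. Mycl was at 9.07 and 8.57 with 5 controls at the floor (at least 5.44) and Myc at 7.39 and 5.97 (at least 3.10). The antagonists Mxd1 and Mxd4 fell by 0.76 and 0.81, calls lost under 12 and 5 of 25 alternatives. Chromatin genes split, with 9 higher and 3 lower of 18. Ezh2, the polycomb methyltransferase of dividing cells, was at 11.06 and 10.29 against 6.09 to 7.25, and its paralogue Ezh1 at 6.82 and 6.94 against 8.05 to 8.87. Dnmt3a, a DNA methyltransferase, fell by 1.18 (SE 0.32) on the probe set used and rose by 2.01 on the most variable one.

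Of 15 hypoxia and glycolysis genes 10 fell and 2 rose in the tumours, with a median of -1.41. Hk2, the inducible hexokinase, was at 9.87 and 10.14 against 7.02 lowest, 7.30 median and 7.42 highest (2.74 ± 0.32), while Hk1, the hexokinase of neurons, was at 7.50 and 8.09 against 9.89 to 10.50 (-2.41 ± 0.27, limma adjusted p = 3.45e-08). Ldha rose by 1.02 ± 0.37 (limma adjusted p = 0.0306) and Ldhb fell by 1.12 (SE 0.25), the Ldha call lost under 9 of 25 alternatives and at -0.08 with the signals as deposited, and the Ldhb call lost under 2. Eno2, the neuronal enolase, fell by at least 6.33. Oxidative phosphorylation genes fell in 8 of 18, with a median of -0.59, and in 3 without tumour 1.

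Signalling lists were mixed, and their counts stand beside 17.4% of all genes tested called higher and 17.8% called lower. Of 13 BMP and Id genes 4 fell and 1 rose. Id4, an inhibitor of basic helix-loop-helix factors, was at 5.00 and 6.47 against 9.87 lowest, 10.07 median and 10.49 highest (-4.42 ± 0.46, limma adjusted p = 1.25e-08), and Id1 was the member that rose (1.43 ± 0.55), a call lost under 14 of 25 alternatives. Of 13 Notch genes 4 rose, among them Hey1 (1.72 ± 0.40) and the fringe gene Mfng (at least 2.54), and of 10 Wnt genes 2 rose. Nkd1, a feedback inhibitor of Wnt signalling, rose by 2.62 ± 0.41, and the receptor Lgr5 by 0.84 ± 0.21, which was -0.26 with the signals as deposited. Among 18 insulin-like growth factor and imprinted genes 5 rose and 6 fell. Irs1, which relays the signal of that receptor, was at 11.46 and 10.52 against 8.64 to 9.15, and Igf2r, which clears the ligand, fell by 1.68 (SE 0.34). The imprinted Meg3 RNA was at 6.92 and 7.38 against 11.57 to 12.09, a fall of 4.79 (SE 0.49) and the same sign on all 11 of its probe sets. Egr1 fell and Egr2 rose among the immediate early genes, by 2.58 and at least 2.31. The nuclear factors Nfia and Nfib rose by 1.39 and 2.26, and Mef2a, a factor of neuron maturation, fell by 1.45 (SE 0.34).

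The 2 tumours differed from each other in some genes, which has no test. Among genes above the floor in both, Gpx3 was at 5.13 in tumour 1 and 9.83 in tumour 2, and Fat2, Gfap and Lcn2 were also higher in tumour 2. Ttr, the thyroxine carrier of choroid plexus, was at 11.19 in tumour 1 and 4.75 in tumour 2, and Krt12 at 9.73 and 5.68. Tumour 2 was the higher in 12 of 14 microglia genes, and tumour 1 in 21 of 27 replication genes. Over all genes tested tumour 2 was the higher in 7873 and tumour 1 in 6051. Tumour 2 was also the dimmer array, and the part of brightness in these differences was not tested.

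Control 6, the only control of the tumours' genotype, lay above the other 5 in 21 of 33 mitosis genes and 18 of 27 replication genes, and in 2887 of 14044 genes overall. Its mitosis mean was 5.42, against 4.40 to 4.75 in controls 1 to 5 and 9.23 and 9.02 in the tumours. Fabp7, a fatty acid binding protein of glial progenitors, was at 6.59 in control 6 and at 9.28 or above in the others. Against control 6 alone, the median mitosis difference was 3.91 and the median mature granule difference -3.49. With control 6 alone as the control side, 2273 genes were called, 1096 higher and 1177 lower, and 10 of the genes called with all controls had the opposite sign. There the spread of a single control is assumed to be that of the other groups. Genotype and this single sample cannot be told apart.

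Against the 19 SmoM2 tumours far fewer genes differed: 8 were higher and 68 lower in the Ptc1+/- tumours (0.057% and 0.484%). Foxd1 was at 8.55 and 8.37 against 3.37 lowest, 4.33 median and 6.22 highest in the SmoM2 tumours, at least 4.03 higher (SE 0.57, limma adjusted p = 0.000398). Prl, the pituitary hormone prolactin, read 5.94 and 7.13 against 3.37 to 5.89. Ptch1 on its brightest probe set was below all 19 SmoM2 arrays, which ran from 10.62 to 12.29 (-2.57 ± 0.29, limma adjusted p = 1.13e-05), and this call was lost with the most variable probe set. Cdon was lower by at least 1.73, a call lost without tumour 2. Aqp4 was lower by 2.74 (SE 0.31) and Gja1 by 2.39 (SE 0.49), and Gas7, a growth arrest gene of neurons, by 3.71 (SE 0.79), a call lost under 9 of 24 alternatives. The mitosis, granule precursor and mature granule lists each had 0 members called by limma between the tumour kinds. An unadjusted p under 0.05 was found for 1 of 33, 2 of 16 and 5 of 11, beside 1660 of 14044 genes tested. The absence of calls does not show that these lists were alike between the tumour kinds. Of 19 genes named in this comparison, Foxd1 and Aqp4 kept the call under every alternative run, and the count of 76 called genes fell to 10 with array brightness as a covariate.

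**Figure D4:**
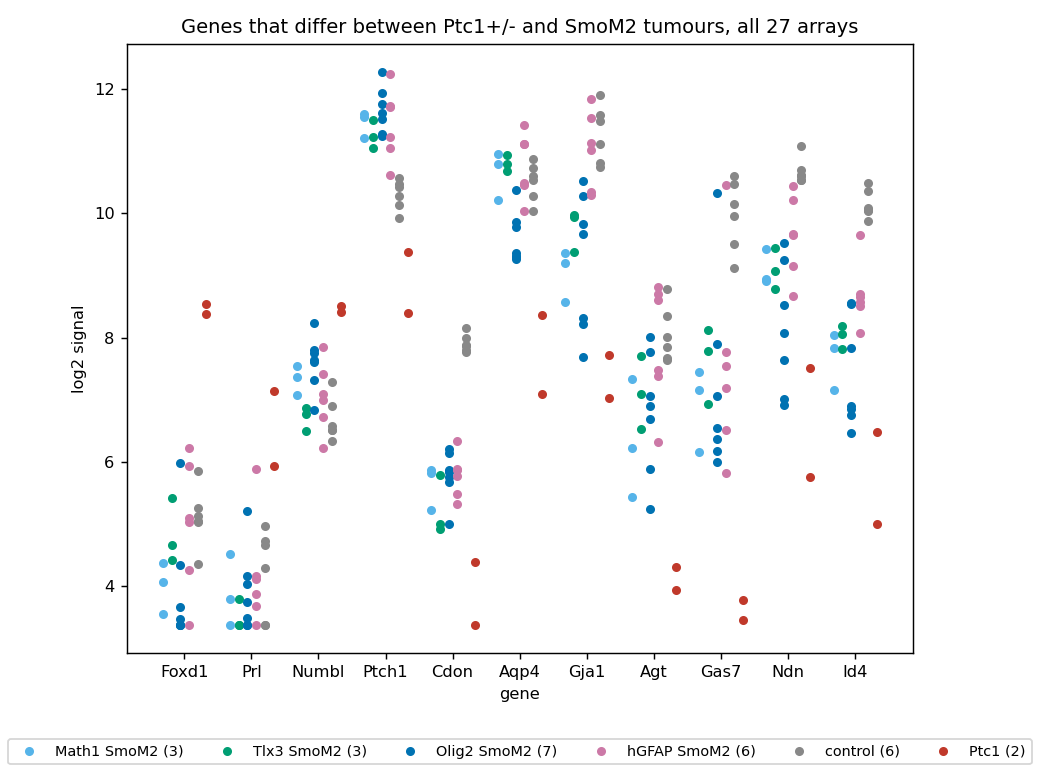
Log2 signal of 11 genes called between Ptc1+/- and SmoM2 tumours on all 27 arrays, coloured by group, with 1 point per array. The Ptc1+/- points (red) lie above all SmoM2 points for Foxd1, Prl and Numbl and below all of them for Ptch1, Cdon, Aqp4, Agt and Gas7.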

How the data were processed

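Total RNA from mouse cerebellum was hybridised to 27 Affymetrix arrays, from 5 ug RNA each per the labels' protocols. Each deposited table gives a linear intensity for 45101 probe sets, the authors' MAS5 output per the submitters' processing notes (version not given in the sources used here). Each array was scaled to a common 2% trimmed mean of 124, since deposited means ran from 42.6 to 206. Signals were then raised to a floor at the 20th percentile (10.3) and log2 taken. Probe sets above 45.6 on at least 2 arrays were kept (31734), and each gene was read from the probe set with the highest mean. The probe annotation gave 34958 probe sets 1 symbol and 932 several, and 9211 were unlisted. No detection calls were used, so low signals can be background, and the number of arrays limits the precision.

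limma 3.58.1 in R 4.3.3 fitted a mean for each of the 6 groups over all 27 arrays (trend, robust, 21 residual degrees of freedom), two-sided, and was tested on simulated data. The arrays were not paired by replicate number in this fit. Deviations of tumour and control from their group means correlated at 0.12 for number 1 and -0.08 for number 2. The deviations of the 2 tumours mirror each other, so these values cannot show whether the numbers mark pairs or batches.

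The comparison, the 42 gene lists (596 genes, 526 tested) and the alternatives were chosen with earlier results of these data known, and lists were described by counts and medians with no set test. Named genes were the 15 largest called changes each way without overlap, list members, the called genes against SmoM2 up to 10 each way (7 higher, 10 lower), and the 5 extremes each way between the tumours and for control 6. A few further list members were added after their values were seen, and the alternatives were followed for all genes so chosen, including some the text does not name. Xist, Y-linked, haemoglobin and immunoglobulin genes were left out. Alternatives changed the scaling, floor, filter, probe set, arrays in the model, controls, moderation, weights, replicate block and covariates. Others left out dim arrays, or each Ptc1+/- tumour and control array in turn, but no SmoM2 array singly. Promoter windows came from RefSeq, and their motifs, and the 5 printed, were chosen after values were seen.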

Additional observations from a re-analysis of the deposited data

Results flagged for a closer look

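For 103 list means and genes, the gap of the farthest control array was set against the range of the 6 controls, and compared with Dixon's critical value for 6 values, which chance passes in about 1 in 20 groups. It was passed by 19, of them 12 by control 6 and 4 by control 5. That rate assumes values that are not tied at the floor. Kl had every other control at the floor, which forces a value of 1. Insm1, Cdca3 and Ube2c had 4, 4 and 3 controls at the floor, so the rate does not hold for these genes. Control 6 stood apart in the means of granule precursor (0.679), mature granule (0.642), mitosis (0.659) and replication genes (0.843). It did so too in Fabp7 (0.744), Tlx3 (0.674), Ezh2 (0.666), Insm1 (0.786), Cdca3 (0.906), Top2a (0.68), Ube2c (0.825) and Slc12a5 (0.6252). Control 5 stood apart in the choroid plexus mean (0.778), Ttr (0.654), Kl (1) and Meg3 (0.657). The others were control 4 in antigen presentation (0.701), control 3 in the p53 axis (0.633) and control 2 in Lyz2 (0.74).

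Differences between Ptc1+/- and SmoM2 tumours passed limma's test for several named genes, in log2 signal. Higher in Ptc1+/- tumours were Foxd1 (at least 4.03), Prl (at least 2.67), Slco1a5 (at least 2.08), Numbl (1.29), Gm26588 (1.05), Sgce (1.00) and Hdhd5 (0.90), in both tumours above all 19 SmoM2 arrays. Lower were Gas7 (-3.71), Agt (-2.91), Aqp4 (-2.74), Ptch1 (-2.57), Gja1 (-2.39) and Ndn (-2.36). Thrsp (-2.57), Borcs7 (-2.53) and Kalrn (-2.34) were at the floor in tumour 2, and Grm3 (-2.35) in both tumours, so these 4 values are limited by the floor. With the floor at the 40th percentile all 4 calls were lost, at -1.23 for Thrsp, -1.43 for Borcs7, -0.58 for Kalrn and -0.88 for Grm3. The calls of Gas7 and Agt were lost under that floor too, at -2.39 and -2.10. Both genes read low in the tumours, Gas7 at 3.44 and 3.77 and Agt at 4.30 and 3.92.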

How the results depend on the processing

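Of 5004 values of followed genes under 25 alternatives, 4658 kept their side of the threshold, 297 lost the call and 38 gained it. A further 11 reversed, with a call on at least 1 side. Among the 4658, 96 changed sign while called under neither setting. Of 151 such genes called against the controls, chosen with their values known, 94 kept the call under every alternative. Reversals with the signals as deposited were Boc (-0.23), Rb1 (-0.13), Ldha (-0.0778), Lgr5 (-0.26) and, against SmoM2, Hdhd5 (-0.0382). Leaving out a tumour moved Cntn2 between -2.02 and 1.45 and Stmn2 between -2.37 and 0.0149. With the most variable probe set Fen1 (1.92), Cdkn1a (-2.11), Gria2 (-1.50) and Dnmt3a (2.01) did, as the probe sets of these genes disagree.

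With the signals as deposited, where dim tumour arrays are not rescaled, 439 genes were higher and 5232 lower, and list members called were 3 for Hedgehog transduction, 4 for microglia, 4 for DNA damage, 1 for ribosome biogenesis and 14 for oxidative phosphorylation. With control 6 alone, 2273 genes were called (1096 higher, 1177 lower), 10208 did not overlap, and list members called were 3 for Hedgehog transduction, 9 for vesicle release, 7 for myelin, 3 for microglia, 5 for ribosome biogenesis, 2 for oxidative phosphorylation and 6 for glycolysis. The 10208 genes, of 14044, cannot be set against the 6270 without overlap with all controls, since 1 control array leaves less range to overlap. Brightness as a covariate left 4 oxidative phosphorylation genes. The count against SmoM2 was 750 as deposited, 203 with a common median, 124 with quantiles, 41 with log2(signal + 16), 126 unfiltered, 50 with mean probe sets, 35 with the most variable, 26 without the controls, 8 with array weights, 10 with brightness and 192 without dim arrays. Without dim arrays, tumour 1 was the only Ptc1+/- tumour left. The cause of these changes in count was not tested.

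Leaving out each Ptc1+/- tumour and control array in turn gave 3607 to 4812 genes called and 6463 to 9935 without overlap (6270 with all). The same runs gave 35 to 141 genes called against SmoM2 and 3 to 8 oxidative phosphorylation genes. The extremes were mostly without a tumour array. No SmoM2 array was left out singly, so 35 to 141 is not a full range for that comparison. Fewer arrays leave less range to overlap, so the higher counts without overlap do not show a stronger separation. With the replicate number as a block 4907 genes were called (2423 higher, 2484 lower) and 74 against SmoM2. With 2 tumours, 1 of them dim, small differences and low signals are measured poorly.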
